A study of Mus musculus with 20 samples.

Results

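Glycolysis splits glucose to pyruvate, gluconeogenesis rebuilds glucose from lactate, amino acids and glycerol, and glycogen is the glucose store of the liver. The 41 genes described here encode the enzymes, carriers and regulators of these routes. They were listed by name and branch, with earlier results of these data known, and no measured value entered the rule. A member was taken as measured where a non-control probe of the array carried its current, older or newer symbol. Of the 41 genes, 40 had such a probe, and all 40 were well above background on all 20 arrays. They belong to 17176 genes or unnamed probes that were tested. Pck1, the cytosolic phosphoenolpyruvate carboxykinase, was not analysed here.

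The livers came from male mice of the inbred strain C57BL/6J, fed from weaning on food that drew 60% of its calories from fat, and sampled at 6 weeks of age. Of these, 10 were responders, which the labels call susceptible to diet-induced obesity, and 10 were non-responders, which they call resistant. Both groups ate this diet, and no liver from another diet is among these samples. Each liver was read on 1 single-colour Agilent array, and the feeding state and the hour of sampling are not given in the sources used here. No label names the animal of a sample, so the p-values rest on the spread between these 20 samples, which may in part be technical.

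The arrays fell into 2 series of slide barcodes, which coincided with the day of scanning. The first held 4 responders and 6 non-responders, and the second held 6 responders and 4 non-responders. The share of spots well above background was 55.8% to 71.2% per array, with none saturated. Levels are log2 of the processed signal minus the array's 75th percentile, so that 0 is the 75th percentile. A level is not compared between genes, because each is read by its own probe. Differences are responder minus non-responder from a limma fit with group and slide series as terms. Among the hepatocyte markers, all 9 measured were detected, and 8 of them were higher in responders, by at most 0.19.

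The liver both makes and uses glucose, and the opposing routes are controlled at the steps that run one way only. In a fed liver, glucokinase, phosphofructokinase and pyruvate kinase move carbon toward pyruvate and lipid, and glycogen synthase stores glucose. In a fasted liver, pyruvate carboxylase, phosphoenolpyruvate carboxykinase, fructose-1,6-bisphosphatase and glucose-6-phosphatase run the other way, and glycogen phosphorylase releases stored glucose. Insulin, glucagon and the sugar-sensing factor ChREBP set much of this balance through transcription.

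No member passed the adjusted threshold of 0.05. The smallest limma adjusted p of a member was 0.493, and 0 of the 17176 rows passed, a background of 0%. At an unadjusted p under 0.05, 10 of the 40 members were listed, or 6 lower and 4 higher in responders. The background at that p was 7.95% of all rows, made up of 3.72% lower and 4.23% higher. The count of 10 was 5 to 9 when 1 liver was left out, and 5, beside 7.43% of all rows, without responder replicate 9. With the mean level of adipose markers in the fit it was 4, namely Slc2a1, Pklr, Slc2a2 and Eno1, beside 6.75% of all rows. Of these, Slc2a2 and Eno1 were not among the 10 members of the main fit. In the main fit the 6 lower members were Hk2, Slc2a1, Klf15, Pfkfb2, Pfkfb1 and Pck2. The 4 higher ones were Pklr, Gckr, Gapdh and Pygl. In all, 20 members were lower and 20 higher in responders, where 51.1% of all rows were lower. The median difference over the members was -0.0049 on the log2 scale, and over all rows it was -0.0028. No member had groups that did not overlap, and 0.00582% of all rows did.

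The signs of many small differences turned with normexp background correction. With normexp correction, which left almost no spread of signal on responder replicate 1, 35 of 40 members were lower in responders and the median difference was -0.35. Under it Fbp1, G6pc3, Gapdh, Gckr, Khk, Pcx, Pdk2, Pygl, Slc2a2 and Ugp2 turned from higher to lower. Plain subtraction of the background reversed none of the 23 members named by rule, and Hk2, Slc2a1, Klf15, Pfkfb1 and Pklr kept their signs under both.

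**Figure D1:**
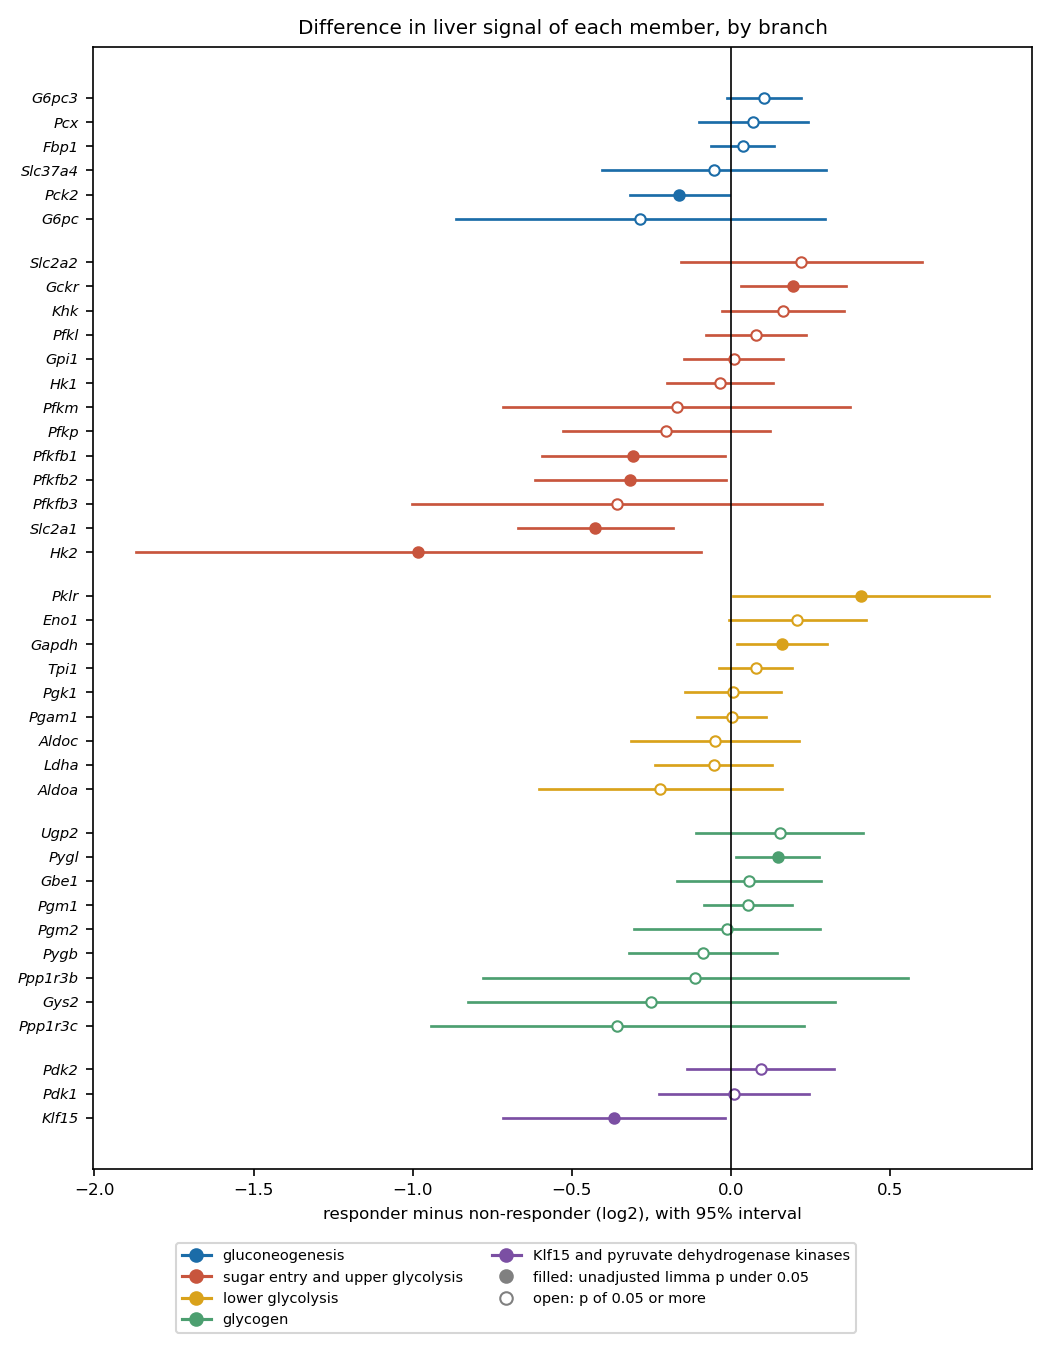
Responder minus non-responder difference in log2 signal of the 40 measured members, with 95% intervals from limma, ordered by size within 5 branches of the pathway. Filled points mark the 10 members at an unadjusted p under 0.05; Hk2 has the widest interval, and most of the others lie within 0.4 of 0.

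Gluconeogenesis was represented by 6 measured genes, 3 of them lower and 3 higher in responders, with a median difference of -0.01. Pcx, which carboxylates pyruvate to oxaloacetate and so opens the route, lay between 6.29 and 6.89 with a median of 6.40 in responders, and between 6.05 and 6.58 with a median of 6.44 in non-responders. The ranges overlapped, and the fitted difference was 0.07 (SE 0.08, adjusted p = 0.836). Fbp1, which removes a phosphate from fructose 1,6-bisphosphate, lay between 8.65 and 9.22 with a median of 8.87 in responders, and between 8.69 and 9.14 with a median of 8.96 in non-responders. Its difference was 0.04 (SE 0.05, 95% interval -0.06 to 0.14). It was the steadiest member, with a residual SD of 0.08 around the fit of group and series. The sign of Fbp1 turned with the scaling, to -0.025 with quantile normalization and -0.029 in the authors' deposited table.

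G6pc, the catalytic subunit of liver glucose-6-phosphatase and the last step before glucose leaves the cell, had differences of opposite sign in the 2 slide series. Over all livers it lay between 5.32 and 7.23 with a median of 6.16 in responders, and between 5.64 and 7.16 with a median of 6.50 in non-responders. In the first series it was 5.32, 5.70, 5.86 and 6.56 in responders, against 6.20, 6.80, 6.91, 6.96, 7.06 and 7.16 in non-responders. In that series 3 of the 4 responders lay below all non-responders. In the second series it was 5.35, 5.46, 6.47, 6.55, 7.07 and 7.23 in responders, against 5.64, 5.95, 6.03 and 6.13 in non-responders. There the responders lay on both sides of all non-responders. The difference was -0.99 in the first series, against 0.42 in the second, and the pooled value was -0.28 (SE 0.28, adjusted p = 0.811). The test of the series difference gave an unadjusted limma p of 0.0073 and did not pass the adjustment, the smallest adjusted p of any member being 0.412.

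G6pc is a known insulin-repressed gene whose promoter carries the insulin response core CAAAACA, a site read by forkhead factors. The window of 250 bases before its start is shown for this motif, which lies on the opposite strand and so reads TGTTTTG in capitals, from RefSeq (build GRCm38.p6, chr11:101367466-101367715, plus strand).
G6pc promoter: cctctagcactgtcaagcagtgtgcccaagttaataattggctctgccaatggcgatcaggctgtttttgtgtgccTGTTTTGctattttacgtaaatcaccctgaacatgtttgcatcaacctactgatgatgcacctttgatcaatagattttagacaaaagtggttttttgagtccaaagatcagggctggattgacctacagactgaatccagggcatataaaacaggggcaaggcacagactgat
The core begins at position -174 from the start. On either strand it was found in 3 of the 39 members with a promoter entry, namely G6pc, Gckr and Pck2, and in 7.20% of the 27025 genes with one. Here and below, such counts cover the whole promoter entry at every listed start of a gene. The windows shown are the first 250 bases of 1 entry. The related forkhead motif GTAAACA was found in 1 member, Aldoc, and in 4.05% of all genes. The G6pc array probe lies at chr11:101238947-101239006 on the plus strand in mm9, the build of the array's annotation.

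Slc37a4 carries glucose 6-phosphate into the endoplasmic reticulum for G6pc, and its difference was -0.05 (SE 0.17). G6pc3, the broadly expressed glucose-6-phosphatase, lay between 0.78 and 1.23 with a median of 1.02 in responders, and between 0.72 and 1.04 with a median of 0.92 in non-responders. It had the branch's most positive difference, 0.10 (SE 0.06, adjusted p = 0.660), and 9 of 10 responders exceeded their series' non-responder mean. Pck2, the mitochondrial phosphoenolpyruvate carboxykinase, lay between -0.23 and 0.23 with a median of -0.06 in responders, and between -0.14 and 0.42 with a median of 0.11 in non-responders. The ranges overlapped widely, although 8 of 10 responders were below their series' non-responder mean. The difference was -0.16 (SE 0.07, unadjusted p = 0.042, limma adjusted p = 0.619).

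Sugar entry and upper glycolysis held 13 measured genes, 8 lower and 5 higher in responders, with a median difference of -0.17. Of these, 5 had an unadjusted p under 0.05, with 4 lower and 1 higher, beside 7.95% of all rows. The 4 were Hk2, Slc2a1, Pfkfb1 and Pfkfb2, and the 1 was Gckr. Slc2a1, the broadly expressed glucose carrier GLUT1, had the smallest p of any member. It lay between 0.66 and 1.22 with a median of 0.89 in responders, and between 0.62 and 1.76 with a median of 1.36 in non-responders. All 10 responders were below their series' non-responder mean, and 1 non-responder, replicate 4, lay below all responders. The difference was -0.43 (SE 0.12, 95% interval -0.67 to -0.18), or 1.34-fold lower, with an unadjusted p of 0.0016 and a limma adjusted p of 0.493. It was -0.46 in the first series, against -0.39 in the second. The probe lies at chr4:118809864-118809923 in mm9, on the plus strand.

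The 250 bases before the Slc2a1 start (RefSeq GRCm38.p6, chr4:119108495-119108744, plus strand) are shown because the gene is a textbook target of hypoxia-inducible factor. Capitals mark ACGTG, the core that this factor reads.
Slc2a1 promoter: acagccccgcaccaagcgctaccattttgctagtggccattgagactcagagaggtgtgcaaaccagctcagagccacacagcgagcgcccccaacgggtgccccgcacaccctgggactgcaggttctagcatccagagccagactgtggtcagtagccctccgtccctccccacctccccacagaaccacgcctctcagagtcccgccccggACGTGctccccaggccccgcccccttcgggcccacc
The core begins at position -36. On either strand, it was found in 23 of the 39 members and in 21.8% of all genes with a promoter entry. The bases ACGTG are also part of the E-box CACGTG, which 10 members and 8.09% of all genes held. Slc2a1 was not among those 10 members. Of the 23 members with the core, 13 were lower and 10 higher in responders. Their differences ran from -0.98 for Hk2 to 0.16 for Khk, with a median of -0.03.

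Hk2, an insulin-responsive hexokinase of muscle and fat that is low in adult hepatocytes, had the largest difference of any member. It lay between -3.74 and -0.67 with a median of -2.93 in responders, and between -3.11 and -0.11 with a median of -1.52 in non-responders. In responders 8 of 10 livers were below their series' non-responder mean, and the ranges overlapped. The difference was -0.98 (SE 0.42, unadjusted p = 0.032, limma adjusted p = 0.605), or 1.98-fold lower, at -0.92 and -1.05 in the first and second series. It was -0.68 with plain background subtraction and -0.31 with normexp. Its residual SD of 0.99 was also the largest of the members. Hk1, the housekeeping hexokinase, had a difference of -0.03 (SE 0.08), and its 3 kept probes disagreed in sign.

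Most markers of fat were lower in responders, as Hk2 was. Of 10 adipose markers 8 were measured, 7 of them lower in responders and 6 at unadjusted p under 0.05, beside 7.95% of all rows. Their mean level, centred over the arrays, ran from -1.93 to 0.96 with a median of -1.12 in responders, and from -1.06 to 2.86 with a median of 1.09 in non-responders. Adipoq, which encodes adiponectin, was well above background in 9 of 10 responders and 10 of 10 non-responders, and its difference was -1.37 (SE 0.58). Of the 2 others, Lep and Adrb3, neither was well above background on enough arrays. Ucp1, the uncoupling protein of brown fat, was well above background in 1 of 10 responders and 7 of 10 non-responders. All 11 skeletal muscle markers measured were lower in responders, with a median of -1.16, but none at p under 0.05. That median was -0.57 in the first series, against -1.83 in the second. The mean muscle level ran from -7.13 to 4.01 in responders and from -6.23 to 4.03 in non-responders. All 10 stellate and fibroblast markers were lower too, 5 of them at p under 0.05, beside the same 7.95% of all rows. Their median difference was -0.02 in the first series, against -0.45 in the second. For the adipose markers it was -1.19 and -1.55. Of 17 pancreatic acinar markers measured, 15 were lower, none at p under 0.05, with a mean level of -4.70 to 5.18 in responders and -4.02 to 5.23 in non-responders. With the mean adipose level added to the fit, the Hk2 difference was -0.07 (SE 0.37), and with the mean muscle level it was -0.72 (SE 0.30). With the adipose level in the fit, Slc2a1 was at -0.41 (SE 0.15), and over the adipose, pancreatic, muscle and clock terms it ranged from -0.42 to -0.33. With the clock terms, Hk2 was at -0.85 (SE 0.47), Klf15 at -0.26 (SE 0.10) and Pck2 at -0.17 (SE 0.08). Pfkfb1 and Pfkfb2 were at -0.18 each (SE 0.12 and 0.11). Pklr was then at 0.46, Gapdh at 0.18, Pygl at 0.17 and Gckr at 0.11 (SE 0.06). In that fit 11 members had an unadjusted limma p under 0.05, beside 10.1% of all rows. Hk2, Pfkfb1, Pfkfb2 and Gckr were not among them, while Eno1, Khk, Pfkp, Pcx and Pygb were. No term for the stellate and fibroblast markers was fitted. In such bulk samples, fewer cells of a type and less RNA per cell cannot be told apart. The tissue from which these marker signals came was not tested.

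**Figure D2:**
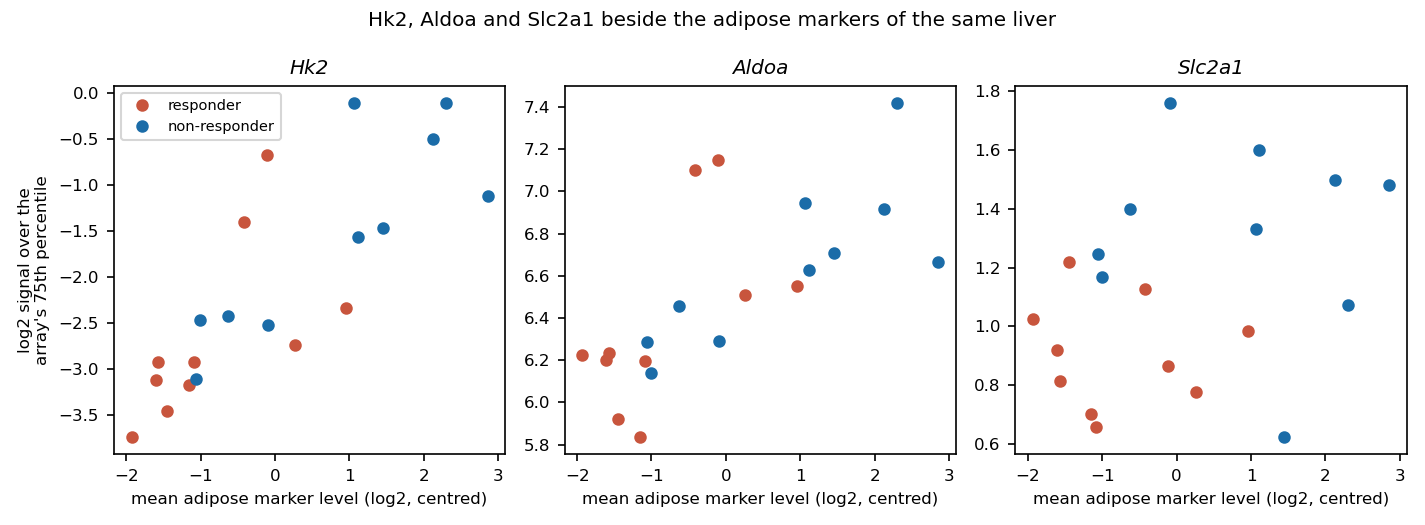
Log2 signal of Hk2, Aldoa and Slc2a1 in each liver (vertical axes) against the mean centred log2 level of the adipose markers in the same liver (horizontal axes); each point is 1 array, responders in red and non-responders in blue. The livers with the lowest adipose markers have low Hk2 and Aldoa signals, and the Slc2a1 signals of responders lie at 0.66 to 1.22 over the whole span of their adipose levels.

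Pfkfb1, Pfkfb2 and Pfkfb3 encode bifunctional enzymes that make and remove fructose 2,6-bisphosphate, the signal that speeds phosphofructokinase and brakes fructose-1,6-bisphosphatase. All 3 were lower in responders. Pfkfb1, the liver form, lay between 3.59 and 4.62 with a median of 4.09 in responders, and between 3.96 and 4.79 with a median of 4.33 in non-responders. In responders 8 of 10 livers lay below their series' non-responder mean. The difference was -0.31 (SE 0.14, unadjusted p = 0.037, limma adjusted p = 0.611). Pfkfb2, the heart form, lay between -1.90 and -0.60 with a median of -1.16 in responders, and between -1.23 and -0.40 with a median of -0.85 in non-responders. Its difference was -0.32 (SE 0.14, limma adjusted p = 0.612), at -0.59 in the first series, against -0.05 in the second. The other 3 Pfkfb2 probes gave -0.02 to -0.05, so the value rests on the brightest probe. Pfkfb3, the inducible form, gave -0.36 (SE 0.31), and all 3 of its probes were lower. Its difference was -0.76 in the first series, against 0.05 in the second.

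The forms of phosphofructokinase itself all had 95% intervals that include 0. Pfkl, the liver subunit, lay between 0.26 and 0.83 with a median of 0.51 in responders, and between 0.19 and 0.59 with a median of 0.46 in non-responders. The ranges overlapped, and its difference was 0.08 (SE 0.08). Pfkm, the muscle subunit, gave -0.17 (SE 0.26), and Pfkp, the platelet subunit, gave -0.20 (SE 0.16). With the mean adipose level in the fit Pfkl was -0.01 and Pfkm was 0.32 (SE 0.25). With the mean muscle level instead, Pfkl was 0.08 and Pfkm was 0.0071 (SE 0.16). Gpi1, which interconverts glucose 6-phosphate and fructose 6-phosphate, gave 0.01 (SE 0.07), and its 2 probes disagreed in sign.

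The liver-type genes of sugar entry, Gckr, Slc2a2 and Khk, were higher in responders, at no adjusted call, and all 3 turned sign with normexp. Gckr, whose protein holds glucokinase inactive in the nucleus, lay between 5.89 and 6.43 with a median of 6.26 in responders, and between 5.75 and 6.24 with a median of 6.05 in non-responders. The difference was 0.20 (SE 0.08, unadjusted p = 0.023, limma adjusted p = 0.591). It was 0.39 in the first series, against -0.0013 in the second. In the first series the 4 responders, at 6.30, 6.33, 6.37 and 6.43, lay above all 6 non-responders, at 5.75 to 6.24. The unadjusted p for the series difference was 0.0084. Slc2a2, the glucose carrier GLUT2 of hepatocytes, lay between 4.58 and 5.19 with a median of 4.90 in responders, and between 3.86 and 5.22 with a median of 4.90 in non-responders. Its difference was 0.22 (SE 0.18), the branch's most positive, and both probes were higher. With the mean adipose level in the fit, the Slc2a2 difference was 0.46 (SE 0.20).

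Khk, the ketohexokinase that commits fructose to metabolism, lay between 7.25 and 7.78 with a median of 7.46 in responders, and between 7.19 and 7.74 with a median of 7.27 in non-responders. The ranges overlapped, with 7 of 10 responders above their series' non-responder mean. The difference was 0.16 (SE 0.09, unadjusted p = 0.089), and the second probe gave 0.18.

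Lower glycolysis, from aldolase to lactate, held 9 genes, 3 lower and 6 higher in responders, with a median difference of 0.01. Pklr, the pyruvate kinase of liver and red cells, had the most positive difference of all members. It lay between 0.15 and 1.64 with a median of 1.17 in responders, and between -0.05 and 1.21 with a median of 0.73 in non-responders. In responders 8 of 10 livers were above their series' non-responder mean, and the ranges overlapped. The difference was 0.41 (SE 0.19, 95% interval 0.01 to 0.81), or 1.33-fold, with an unadjusted p of 0.047 and a limma adjusted p of 0.626. It was 0.41 in the first series, against 0.40 in the second, and 0.59 with the adipose level in the fit.

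Pklr is switched on by ChREBP, which binds a pair of E-box-like motifs set 5 bases apart, the carbohydrate response element. The 250 bases before the downstream of its 2 listed starts (RefSeq GRCm38.p6, chr3:89136373-89136622, plus strand) and before the Khk start (chr5:30921309-30921558, plus strand) are shown, since these genes varied together across livers. Capitals mark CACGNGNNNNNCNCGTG, a spelling of that element, in Pklr and the E-box CACGTG in Khk.
Pklr promoter: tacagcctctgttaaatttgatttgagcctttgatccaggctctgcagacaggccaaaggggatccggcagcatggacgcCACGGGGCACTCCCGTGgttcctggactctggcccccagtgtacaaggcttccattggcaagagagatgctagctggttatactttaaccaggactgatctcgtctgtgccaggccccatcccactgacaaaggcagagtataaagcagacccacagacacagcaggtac
Khk promoter: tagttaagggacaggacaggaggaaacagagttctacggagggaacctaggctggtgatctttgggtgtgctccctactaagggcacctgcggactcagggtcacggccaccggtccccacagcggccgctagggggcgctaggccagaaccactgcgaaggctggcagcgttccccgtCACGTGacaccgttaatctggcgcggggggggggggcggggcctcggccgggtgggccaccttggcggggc
The element begins at position -170 in Pklr. Searched on both strands, it was found in 14 of the 27025 genes with a promoter entry, or 0.0518%, and in Pklr alone among the 39 members. The E-box of Khk begins at position -71. Of the 10 members that held this E-box, 6 were lower and 4 higher in responders. Whether either motif has a part in the shared variation of Pklr and Khk was not tested. The array's Pklr probe, which spans chr3:88948907-88949425 on the plus strand in mm9 and is longer on the genome than its own 60 bases, is shown as the sequence that gave these values.
Pklr probe: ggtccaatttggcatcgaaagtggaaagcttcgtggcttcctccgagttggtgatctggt

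Gapdh, which oxidises glyceraldehyde 3-phosphate and is widely used as a loading control, was higher in all 10 responders than their series' non-responder mean. It lay between 7.36 and 7.76 with a median of 7.49 in responders, and between 7.04 and 7.59 with a median of 7.42 in non-responders. The ranges overlapped, and the lowest non-responder, replicate 10, stood apart at 7.04. The difference was 0.16 (SE 0.07, unadjusted p = 0.029, limma adjusted p = 0.601). Both array probes for it gave 0.16, and they are shown because they are separate readings of the same transcript in mm9 (chr6:125112515-125112573 and chr6:125112105-125112274, minus strand).
Gapdh probe 1: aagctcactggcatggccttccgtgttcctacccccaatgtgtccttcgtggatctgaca
Gapdh probe 2: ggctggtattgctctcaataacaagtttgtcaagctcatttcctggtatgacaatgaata
Gapdh has many processed copies in the mouse genome, so both readings are uncertain.

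The aldolase Aldoa had the most negative difference of lower glycolysis. It lay between 5.83 and 7.15 with a median of 6.23 in responders, and between 6.14 and 7.42 with a median of 6.64 in non-responders. The ranges overlapped, the difference was -0.22 (SE 0.18), and with the adipose level in the fit it turned to 0.15 (SE 0.17). With the mean muscle level in the fit, the Aldoa difference was -0.10 (SE 0.11). Eno1, an enolase with the near copy Eno1b, gave 0.21 (SE 0.10, unadjusted p = 0.057), at -0.03 in the first series, against 0.44 in the second. The unadjusted p for that series difference was 0.018. The remaining genes, Aldoc, Tpi1, Pgk1, Pgam1 and Ldha, had differences from -0.05 to 0.08 on the probes used. Of these, Ldha makes lactate and gave -0.05 (SE 0.09), and Pgam1 and Tpi1 were among the steadiest members, with residual SDs of 0.10 each. The other Tpi1 probe gave -0.11, of opposite sign to the one used, and the other Aldoc probe gave -0.16. The Pgk1 probe is placed at chr3:57906703-57906762 in the array's mm9 annotation although the gene lies on chromosome X, so it may read a copy.

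**Figure D3:**
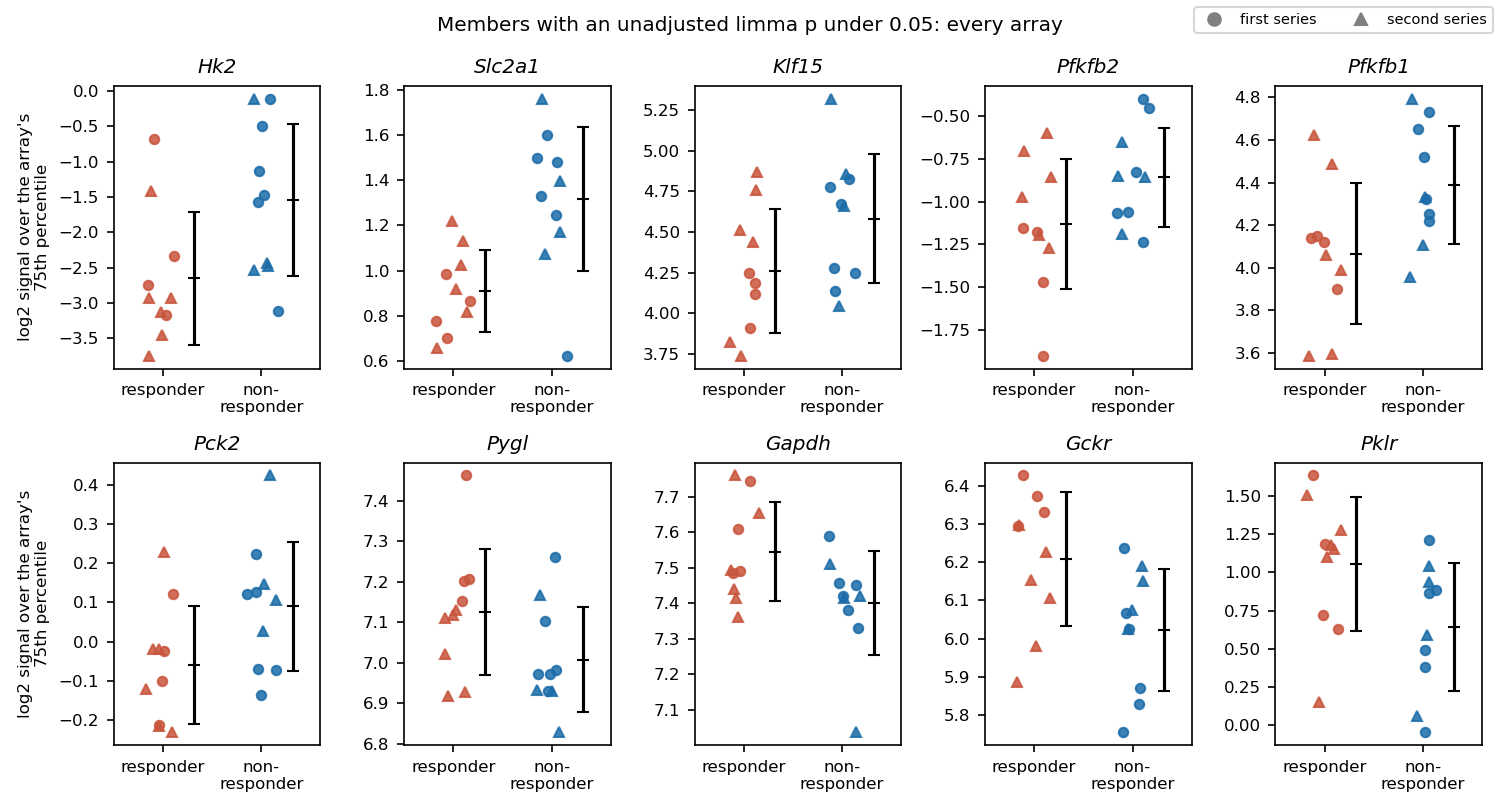
Log2 signal over the array's 75th percentile in every liver for the 10 members at an unadjusted limma p under 0.05, responders in red on the left and non-responders in blue on the right of each panel. Circles are the first and triangles the second slide series, and black bars are the group mean and SD (n = 10 each); the groups overlap in all 10 panels.

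The glycogen branch held 9 genes, 5 lower and 4 higher in responders, with a median difference of -0.01. Gys2, the liver glycogen synthase, lay between 5.06 and 6.65 with a median of 5.81 in responders, and between 5.14 and 6.72 with a median of 6.21 in non-responders. The ranges nearly coincided, and the difference was -0.25 (SE 0.28, adjusted p = 0.828). Pygl, the liver glycogen phosphorylase, lay between 6.92 and 7.46 with a median of 7.12 in responders, and between 6.83 and 7.26 with a median of 6.97 in non-responders. In responders 8 of 10 livers were above their series' non-responder mean. The difference was 0.15 (SE 0.06, unadjusted p = 0.030, limma adjusted p = 0.604). Its second, dimmer probe gave -0.16, so the direction rests on the probe used.

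Ppp1r3b and Ppp1r3c encode subunits that bring protein phosphatase 1 to glycogen, where it activates the synthase. Ppp1r3c lay between 1.45 and 3.57 with a median of 2.27 in responders, and between 1.70 and 3.72 with a median of 3.04 in non-responders. Its difference was -0.36 (SE 0.28, adjusted p = 0.770), at -0.70 in the first series, against -0.02 in the second. Ppp1r3b lay between 0.0043 and 2.52 with a median of 0.98 in responders, and between 0.62 and 2.18 with a median of 1.48 in non-responders. The responders spread beyond the non-responders at both ends. The pooled difference was -0.11 (SE 0.32), made of -0.72 in the first series, against 0.49 in the second, with an unadjusted p of 0.055 for the difference between series. Without responder replicate 1 or responder replicate 10 the pooled value turned to 0.09 or 0.03.

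Ugp2, which makes UDP-glucose for glycogen, had the branch's most positive difference. It lay between 3.31 and 4.40 with a median of 3.79 in responders, and between 2.92 and 4.2 with a median of 3.49 in non-responders. The difference was 0.15 (SE 0.12). The branching enzyme Gbe1 gave 0.06, the phosphoglucomutases Pgm1 and Pgm2 gave 0.05 and -0.01, and Pygb, the brain phosphorylase, gave -0.09. The array swaps the names of both phosphoglucomutases relative to RefSeq, and the RefSeq names are used. The 2 Pygb probes disagreed in sign.

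Klf15, a transcription factor that favours amino acid breakdown and gluconeogenesis in fasting, was lower in responders in both series. It lay between 3.74 and 4.87 with a median of 4.22 in responders, and between 4.04 and 5.32 with a median of 4.67 in non-responders. In responders 8 of 10 Klf15 values were below their series' non-responder mean, and the ranges overlapped. The difference was -0.37 (SE 0.17, unadjusted p = 0.039, limma adjusted p = 0.612), at -0.37 and -0.36 in the first and second series, and its other probe gave -0.22. Pdk1 and Pdk2 encode kinases that switch off pyruvate dehydrogenase. Pdk2 lay between 1.41 and 2.42 with a median of 1.87 in responders, and between 1.46 and 2.07 with a median of 1.82 in non-responders. Its difference was 0.09 (SE 0.11), and that of Pdk1 was 0.01 (SE 0.11).

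Across the members, 25 of 40 had the same sign in both slide series, where 48.8% of all rows did. In the first series 21 members were lower in responders, and in the second 16 were. The test of the series difference had an unadjusted p under 0.05 for 3 members, G6pc, Gckr and Eno1, and for 9.69% of all rows, of which 0 passed the adjustment. The smallest adjusted p of that test over all rows was 0.323. Hk2, Slc2a1, Klf15 and Pklr gave nearly equal values in both series.

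**Figure D4:**
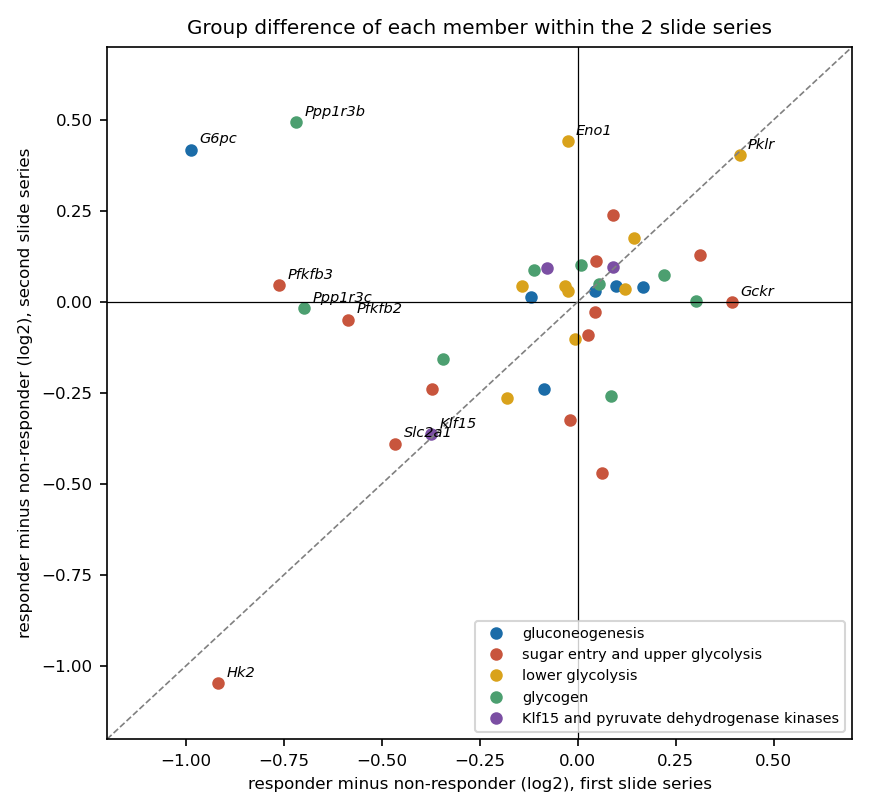
Responder minus non-responder difference of each member in the first slide series (horizontal axis, log2) and in the second (vertical axis, log2), coloured by branch, with a dashed line of equality. Hk2, Slc2a1, Klf15 and Pklr lie near the line, while G6pc and Ppp1r3b lie far to the upper left.

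The members differed widely in how much they varied around the fit of group and series. This residual SD still holds any difference between series in the group effect, as for G6pc. It had a median of 0.25 on the log2 scale. It was over 0.5 for 7 members, Hk2, Ppp1r3b, Pfkfb3, Ppp1r3c, G6pc, Gys2 and Pfkm, and under 0.2 for 15. The whole range over the 20 livers was 12.4-fold for Hk2, 5.74-fold for Ppp1r3b and 3.75-fold for G6pc, against 1.48-fold for Fbp1 and 1.23-fold for Pgam1. With 2 components of the clock genes in the fit, the G6pc difference was 0.07 and the Ppp1r3b difference 0.32. The part of sampling hour in these values was not tested.

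Pairs of members that act together or in opposition were compared across the 20 livers, on levels centred on the mean of their slide series. In all 7 pairs were computed, with two-sided permutation tests of 100000 resamples within series. Pklr and Khk varied together, with Pearson's r = 0.66 (permutation p = 0.0022, adjusted p = 0.0121) and Spearman's rho = 0.60 (permutation p = 0.0055, adjusted p = 0.0194). The value of r was 0.64 and 0.68 in the first and second series, 0.60 when centred on group and series, and 0.62 without the 2 livers farthest from the Pklr median. With normexp correction r was 0.51 and did not pass (adjusted permutation p = 0.0591). Ppp1r3b and Ppp1r3c also varied together, with r = 0.65 (permutation p = 0.0035, adjusted p = 0.0121) and rho = 0.66 (permutation p = 0.0023, adjusted p = 0.0163). Their r was 0.77 in the first series, against 0.55 in the second, 0.61 when centred on group and series, and 0.60 without the 2 livers farthest from the Ppp1r3b median.

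The other 5 pairs did not pass the adjustment. G6pc and its partner carrier Slc37a4 had r = 0.48 (permutation p = 0.037, adjusted p = 0.086) and rho = 0.47 (permutation p = 0.046, adjusted p = 0.107). It was 0.53 when centred on group and series, and 0.36 without the 2 livers farthest from the G6pc median. The opposing glycogen enzymes Gys2 and Pygl had r = 0.33 (adjusted permutation p = 0.301) and rho = 0.33 (adjusted permutation p = 0.222), and r = 0.42 without the 2 livers farthest from the Gys2 median. Centred on group and series, r was 0.58, with no test. With the mean of both Pygl probes in place of the brightest, that r was 0.67 and passed (adjusted permutation p = 0.0076). The opposing enzymes G6pc and Pklr had r = 0.19 (adjusted permutation p = 0.441) and rho = 0.12 (adjusted permutation p = 0.623), with r at -0.24 in the first series, against 0.62 in the second. Without the 2 livers farthest from the G6pc median it was 0.05, and centred on group and series it was 0.41. Pfkfb1 and Pklr had r = -0.24 (adjusted permutation p = 0.375), rho = -0.16 (adjusted permutation p = 0.601) and r = -0.22 without 2 livers. Centred on group and series, r was -0.05 for this pair. For G6pc and Klf15, r was 0.30 (adjusted permutation p = 0.301), rho was 0.41 (adjusted permutation p = 0.142) and r was 0.21 without 2 livers. That r was 0.73 in the first series, against 0.04 in the second, and 0.27 when centred on group and series. All genes of a liver share its array and its scaling.

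**Figure D5:**
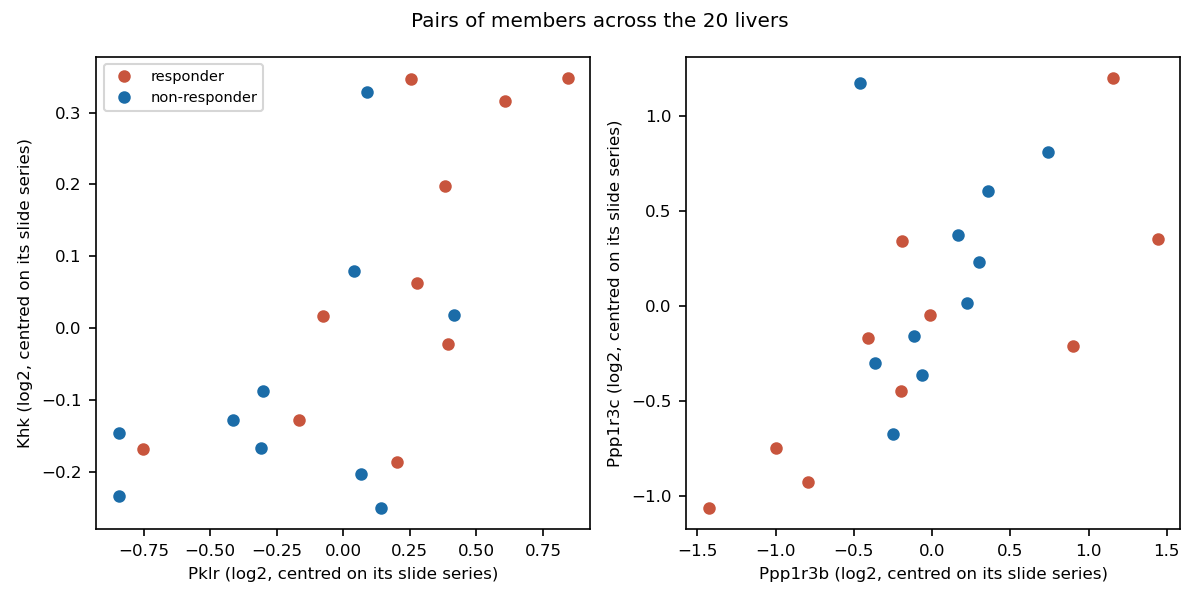
Levels of Pklr against Khk (left) and of Ppp1r3b against Ppp1r3c (right) in the 20 livers, in log2 signal centred on the mean of the slide series; each point is 1 liver, responders in red and non-responders in blue. Livers high in the first gene of a pair tend to be high in the second, with Pearson's r of 0.66 and 0.65.

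Other genes of these pathways likewise gave no adjusted call. Each count of them at an unadjusted p under 0.05 stands beside 7.95% of all rows. Among 16 measured isozymes, 11 were lower and 5 higher, and 1 was at an unadjusted p under 0.05. That gene was Ldhd, which oxidises D-lactate, with a mean of 3.13 (SD 0.26) in 10 responders and 2.88 (SD 0.23) in 10 non-responders, and its difference was 0.25 (SE 0.11). The most negative were Pgam2, the muscle phosphoglycerate mutase, at -0.86 (SE 1.04), and Pdk4, a fasting-induced kinase of pyruvate dehydrogenase, at -0.61 (SE 0.70). Among 17 other glycogen genes, 8 were lower and 9 higher, and 5 were at p under 0.05. Of these, Ppp1ca, a catalytic subunit of protein phosphatase 1, was 0.19 (SE 0.05) higher in responders, while Ppp1cb, another, was -0.13 (SE 0.05). Phka2, the liver regulatory subunit of phosphorylase kinase, gave 0.21 (SE 0.09), and Gsk3b, a kinase that inactivates glycogen synthase, gave 0.19 (SE 0.09). Ppp1r3g, a further glycogen-targeting subunit, gave -1.41 (SE 0.62), at -2.72 in the first series, against -0.09 in the second. It was well above background in 7 responders and 10 non-responders. Stbd1, a glycogen-binding protein, gave -0.24 (SE 0.19).

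Of 17 genes that supply gluconeogenic substrate, 11 were lower and 6 higher, and 3 were at p under 0.05. Got1, the cytosolic aspartate aminotransferase, had a mean of 5.35 (SD 0.70) in 10 responders and 6.00 (SD 0.51) in 10 non-responders, and its difference was -0.68 (SE 0.27). Sds, the serine dehydratase, was -0.56 (SE 0.27), and Aqp9, the glycerol channel of hepatocytes, was 0.22 (SE 0.10). Of 29 hormone and carbohydrate regulators, 17 were lower and 12 higher, and 3 were at p under 0.05, all lower in responders. Igfbp1, an insulin-repressed secreted binding protein, had a mean of 4.88 (SD 0.90) in 10 responders and 6.50 (SD 0.68) in 10 non-responders, and its difference was -1.56 (SE 0.35, limma adjusted p = 0.345), at -2.37 in the first series, against -0.74 in the second. The unadjusted p for that series difference was 0.014. Sik1, a kinase induced by cyclic AMP, gave -0.74 (SE 0.27), and Ppargc1a, a coactivator of gluconeogenic genes, gave -0.46 (SE 0.20).

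Of 11 genes of pyruvate import and pyruvate dehydrogenase, 9 were lower and 2 higher. In that list Slc16a7, a monocarboxylate carrier, gave -0.30 (SE 0.14) and Slc16a1, another, gave -0.18 (SE 0.17). In the pentose phosphate pathway 3 genes were lower and 8 higher, with Tigar, a fructose-2,6-bisphosphatase-like enzyme, at 0.18 (SE 0.08) and Prps2, a phosphoribosyl pyrophosphate synthetase, at 0.20 (SE 0.10). Among 13 other sugar genes 6 were lower and 7 higher, none at p under 0.05. Of these, Tkfc, which phosphorylates the glyceraldehyde made from fructose, gave 0.26 (SE 0.16), and Sord, which makes fructose from sorbitol, gave 0.18 (SE 0.11). Of 13 clock genes, 7 were lower and 6 higher, with Per1 at -1.06 (SE 0.67) and Ciart at -0.98 (SE 1.20), and none was at p under 0.05.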

How the data were processed

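Liver RNA of 20 samples was labelled with Cy3 and read on single-colour Agilent arrays, per the labels' protocols. The authors' scanner files hold linear spot intensities, from which local background and a spatial trend had been removed within each array, per the file headers. The headers name Agilent Feature Extraction 10.5.1.1, while the submitters' processing notes name version 9.1. The authors' deposited table of processed intensity was an alternative, and its normalization is unknown.

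Processed intensity was put on the log2 scale minus each array's 75th percentile. Control and outlier-flagged spots were left out. A probe was kept if at least 5 arrays of either group had it well above background, and the brightest kept probe stood for its gene. Symbols followed RefSeq by accession. The group difference was fitted in R 4.3.3 by limma 3.58.1 (lmFit, eBayes), with slide series as a term and Benjamini-Hochberg adjustment over 17176 rows. The fit was also run on simulated data as a check of the code. How often it finds differences as small as those of the members is not given here. The number of arrays limits the precision. Exact probe positions relative to exons and untranslated regions were not analysed here.

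The members and the gene lists were chosen with earlier results of these data known. Values per group are given for 15 flux-controlling or liver-typical members, for members at an unadjusted p under 0.05, and for the most positive and most negative member of each branch. Genes of other lists are named at an unadjusted p under 0.05 or among the 2 with the greatest difference. Pairs with Pck1 could not be computed, and G6pc with Pklr and G6pc with Klf15 were added in their place after the data were seen.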

Additional observations from a re-analysis of the deposited data

Results flagged for a closer look

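In 80 groups of 10 livers, one for each member and group, 5 held a liver whose gap to its nearest neighbour as a share of the group's range, exceeded Dixon's 95% critical value. Chance flags about 1 in 20 groups. Pfkp was highest in responder replicate 3 at -1.91, with the next responder at -2.45. Pgm2 was lowest in the same liver at -3.42, with the next at -2.78. Eno1 was lowest in responder replicate 8 at 2.59, with the next at 2.82. Pygl was highest in responder replicate 2 at 7.46, with the next at 7.21. Gapdh was lowest in non-responder replicate 10 at 7.04, with the next non-responder at 7.33.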

How the results depend on the processing

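No member passed the adjusted threshold under any setting run. The count of members at an unadjusted p under 0.05, 10 of 40, was 3 with normexp background correction, 5 without the slide series term, 3 in the second series alone and 4 with adipose markers as a covariate. The share of all rows at that p, 7.95%, was 2.33%, 7.30%, 6.86% and 6.75% in the same order. With normexp, 35 members were lower in responders, the median difference was -0.35, 1 member depended on slide series and 4 pairs passed. Normexp turned Fbp1 to -0.41, G6pc3 to -0.045, Gapdh to -0.32, Gckr to -0.34, Khk to -0.36, Pcx to -0.40, Pdk2 to -0.13, Pygl to -0.32, Slc2a2 to -0.26, Ugp2 to -0.24 and the correlation of Pfkfb1 and Pklr to 0.28. The correlation of Pklr and Khk was 0.51 there and did not pass (adjusted permutation p = 0.0591). The correlation of Gys2 and Pygl passed at 0.67 with the mean of all probes (adjusted permutation p = 0.00763). After normexp the interquartile range of log2 signal was 0.03 in responder replicate 1 and 0.73 in responder replicate 5, against up to 3.41 in others. Plain subtraction of the background with an offset of 50, an alternative chosen after seeing the data, reversed none of the 23 named members.

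Fbp1 was -0.0251 with quantile normalization, -0.0292 in the authors' deposited values and -0.0250 without the series term, and Pygl was -0.0044 as the mean of its probes. In the second series alone G6pc was 0.42, Gckr was -0.0013 and Ppp1r3b was 0.49. The adipose covariate turned Aldoa to 0.15 and Pfkl to -0.0101, and clock components turned G6pc to 0.0738 and Ppp1r3b to 0.32. The cause of these turns was not tested.

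Leaving out 1 liver gave 5 to 9 members at an unadjusted p under 0.05, 18 to 24 lower members, median differences of -0.03 to 0.01 and 2 to 6 members that depended on series. The first count was 5 without responder replicate 9, beside 7.43% of all rows. It was 6 without responder replicate 2, 3 or 4 or non-responder replicate 1, 2 or 10, beside 6.45% to 7.77% of all rows. The count of members that depended on series was 6 without non-responder replicate 4. It was 5 without responder replicate 4 or 9 or non-responder replicate 9. Ppp1r3b turned to 0.0945 and 0.0293 without responder replicate 1 and 10.

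Whether the numbers in the titles pair the samples is not settled by the values here. Correlations of same-numbered deviations ran from -0.23 to 0.59 with a median of 0.20, and 3 of 10 responders correlated best with their own number. With a block on that number, 9 members and 10.6% of all rows were at an unadjusted p under 0.05, 22 members were lower, the median difference was -0.00947 and 0 passed the adjustment. The correlation within slides was 0.04, and with slide as a random block 9 members and 7.94% of all rows were at that p. The authors' values covered 39 of the 40 members.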
